A study of Arabidopsis thaliana with 24 samples.

Results

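The transcriptome of asf1ab seedlings was set against that of wild type (WT) in white light, without any shade treatment. The comparison uses 6 of the 24 libraries of the study, 3 of asf1ab and 3 of WT, and covers all 33020 loci of the authors' expression table. Both groups were whole Arabidopsis thaliana seedlings, 6 days old, with Col-0 as the wild type. The name asf1ab marks seedlings mutant in both ASF1A and ASF1B. The labels do not give the alleles or say whether more than 1 line was used. The other groups of the study were hira and pif7 mutants in white light, and all 4 genotypes after 1 hr of shade at a red to far-red ratio of 0.4. Shaded asf1ab and WT are used below as a second set of libraries, and white-light hira as a second mutant in the histone chaperone network. The question addressed is which transcripts differ in asf1ab seedlings before any shade signal.

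ASF1 (ANTI-SILENCING FUNCTION) proteins are conserved histone chaperones that bind a dimer of histones H3 and H4. They hand these dimers to CAF-1, which builds nucleosomes behind the replication fork, and to the HIRA complex, which deposits the replacement variant of H3 outside replication. Arabidopsis has a pair of ASF1 genes with overlapping functions, so both have to be mutated to see most of the phenotype. In seedlings the chaperones are studied for their part in replication, heat responses and light-dependent gene activation.

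Expression values are the authors' FPKM, fragments counted per length of transcript and per size of the library. They sum to between 816624 and 869924 in the 6 libraries, and between 18458 and 19145 loci reach 1 FPKM. The spacing of the lowest values gives a rough depth of 13.7 to 18.5 M counted fragments per library. Libraries of 1 genotype correlated at 0.961 to 0.976 across genes, and libraries of different genotypes at 0.930 to 0.952. Plastid-encoded transcripts took 2.31, 1.12 and 0.988% of summed FPKM in asf1ab replicates 1, 2 and 3, against 0.905, 0.851 and 0.865% in WT. Asf1ab replicate 1 therefore stands apart in plastid RNA. The other libraries that stand apart in a group of genes are named with that group. The test was run on log2(FPKM + 1), and every log2 change below is asf1ab minus WT on that scale, with its standard error. The added 1 understates the change of genes with low values. A gene was called when its adjusted p was below 0.05. Nothing in the labels ties replicate libraries to separate cultures, so p-values measure only the spread between these samples. Since whole seedlings were used, fewer cells of a type and less RNA per cell cannot be told apart.

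ASF1B (AT5G38110) had 2.09, 1.74 and 1.77 FPKM in asf1ab, against 10.6, 9.76 and 8.11 FPKM in WT. All 3 asf1ab libraries were far below the WT libraries, and the fall was -1.87 ± 0.12 log2 (adjusted p = 3.67e-09, n = 3 each). ASF1A (AT1G66740) had 8.80, 9.95 and 9.92 FPKM in asf1ab, against 13.4, 13.2 and 12.2 FPKM in WT. The groups did not overlap, but the fall was only -0.40 ± 0.10 log2 (adjusted p = 0.00642), so most of the ASF1A signal was still counted. In shade ASF1A had 12.1, 15.8 and 16.4 FPKM in asf1ab and 13.3, 12 and 12.4 FPKM in WT, a difference of 0.21 log2 that was not called. A gene-level value also counts transcript from outside a mutated part of the gene, so ASF1A checks the label weakly and ASF1B strongly. None of the other 17 listed H3-H4 chaperone and FACT genes was called in the deposited values. Rescaling by the median of ratios and quantile normalization, both described below, each gave 2 genes of this list called higher. HIRA had 5.78, 6.37 and 5.77 FPKM in asf1ab, against 4.60, 5.04 and 4.99 FPKM in WT, and its change of 0.25 log2 missed the threshold (adjusted p = 0.0576). Among the 10 loci on each side of ASF1A, 12 were tested and 3 were called: AT1G66750 higher, AT1G66760 and AT1G66783 lower. Among all genes tested 22.1% were called, so this small count is not read as a result about the neighbours. None of the 8 tested neighbours of ASF1B was called.

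Of the 19126 genes with a mean of at least 1 FPKM over the 24 libraries, 4225 differed between asf1ab and WT (22.1% of those tested). A fit on the 6 compared libraries alone called 2324, 608 higher and 1716 lower. Of the 143 called genes that the naming rule took, 49 were not called in that fit. Those described below are PCC1, CYP81D11, U4.10, AT1G75600, AT3G27360, AT5G10390, AT3G45930, AT5G59970, HTB4, ZAT12, WRKY40, ICS1, GSTF12, PHT1;4, SOC1, SCR, KAT1, SUC2, RBCS3B, PSBR, CA1, PHYB, PIL1, SMR1, SIM and ARP6, with adjusted p between 0.0513 (SUC2) and 0.26 (PSBR). The split was uneven, with 1197 genes higher (6.26%) and 3028 lower (15.8%) in asf1ab. Falls were also the more frequent among large changes: 266 genes were called higher by at least 1 log2 unit (1.39%) and 630 lower by as much (3.29%). The split between rises and falls depends on scaling. Rescaling the libraries by the median of ratios gave 1881 higher and 2268 lower genes, and quantile normalization gave 2114 and 2138. Among changes of at least 1 log2 unit falls stayed more numerous, with 292 higher and 546 lower after rescaling and 309 and 514 after quantile normalization. The median change of all genes was -0.067 log2. Calls were spread over the 5 chromosomes, with 5.65 to 6.58% of tested genes higher and 15 to 16.4% lower on each. Among genes of 1 to 2 FPKM 5.87% were higher and 12.3% lower, and among genes of 50 FPKM or more 6.66% and 14.6%. In 2064 genes all asf1ab libraries lay above all WT libraries (10.8%), and in 4634 all lay below (24.2%). Members of 32 gene lists are described next, each count read against these shares.

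**Figure D1:**
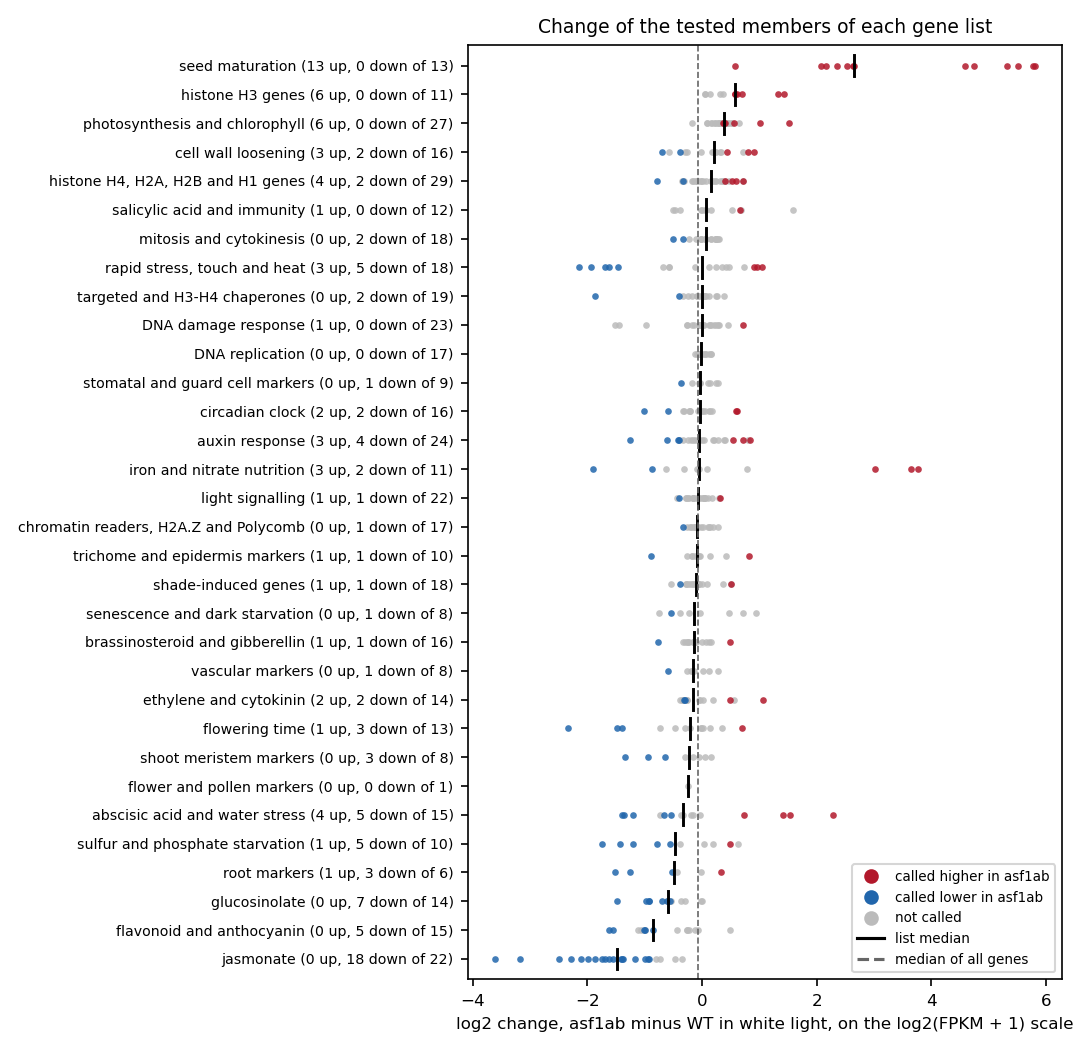
Log2 change of each tested member (asf1ab minus WT, white light, log2(FPKM + 1) scale, x axis) in 32 gene lists (rows), with the number called in each direction; black bars are list medians and the dashed line is the median of all genes. Seed maturation genes lie farthest to the right, with all 13 tested members called higher, and jasmonate genes farthest to the left, with 18 of 22 called lower.

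The largest rises were in genes of seed maturation, which in WT are shut off during germination. SESA5 (AT5G54740), a seed storage albumin, had 21.4, 131.3 and 65.9 FPKM in asf1ab, against 0, 0.06 and 0.07 FPKM in WT. CRA1 (AT5G44120), which encodes a cruciferin, the legumin-type globulin of the seed, had 24.6, 89.0 and 90.09 FPKM in asf1ab, against 0.06, 0.11 and 0.08 FPKM in WT. These are transcripts near or at the floor of the table in WT and at the level of moderately expressed genes in the mutant. The albumin genes SESA1 (11.7, 52.3 and 27.0 FPKM) and SESA3 (10.2, 47.3 and 24.6 FPKM) and the cruciferin gene CRU3 (17.8, 65.2 and 51.4 FPKM) were expressed in all asf1ab libraries and listed at 0 in all WT libraries. SESA2 rose by 5.51 ± 0.38 log2 (adjusted p = 7.71e-09), SESA5 by 5.81 ± 0.40 (adjusted p = 8.54e-09) and CRA1 by 5.78 ± 0.51 (adjusted p = 1.63e-07). The genes SESA1 to SESA4 are similar tandem copies, and how the authors' counting divided reads among them is not given. In each of these storage genes asf1ab replicate 1 was the lowest of the mutant libraries.

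Of the 18 listed seed maturation genes, 13 were tested and all 13 were higher in asf1ab, against 6.26% of all genes, with a median of 2.65 log2. The filter has a part in this count, since a gene silent in WT could pass only through the mutant libraries. Counted over all 18 members, asf1ab lay above WT in every library for 15, against 2506 of all 33020 loci. LEC1 was listed at 0 in all 6 libraries. The oil body proteins OLEO2 and OLEO1 rose by 2.64 and 2.53 log2 and the desiccation proteins EM6 and EM1 by 2.65 and 2.07. The regulators that switch this programme on in the embryo stood much lower. ABI3, a B3-domain transcription factor, had 1.92, 2.56 and 2.32 FPKM in asf1ab, against 1.34, 1.28 and 0.96 FPKM in WT, a rise of 0.57 log2 (adjusted p = 0.0352). FUS3 reached at most 0.33 FPKM in any of the 6 libraries, LEC2 0.16 and ABI4 0.16. Summed over the list, asf1ab had 136.2, 572.3 and 409.4 FPKM in replicates 1, 2 and 3, against 10.7, 10.5 and 4.48 FPKM in WT. With any 1 library left out 12 or 13 members were called higher, and under both other scalings 13.

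**Figure D2:**
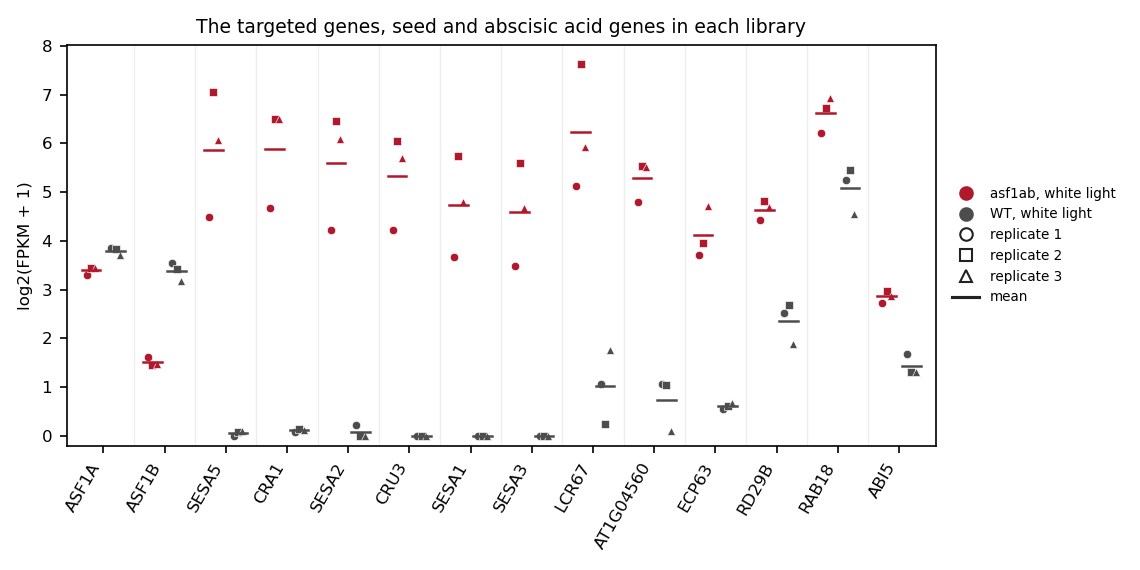
Log2(FPKM + 1) of the mutated genes and of seed and abscisic acid genes in each white-light library (points, shaped by replicate) with group means (bars), asf1ab left of WT for each gene. ASF1A and ASF1B are lower in asf1ab, and the 6 storage genes lie between 10.2 and 131.3 FPKM in asf1ab, against at most 0.17 FPKM in WT.

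Other strong rises came from genes outside the list. LCR67 (AT1G75830), a small cysteine-rich protein of the defensin family, had 34.0, 196.8 and 59.6 FPKM in asf1ab, against 1.1, 0.19 and 2.40 FPKM in WT (5.20 ± 0.55 log2, adjusted p = 1.62e-06). AT3G02790, a C2H2 zinc-finger gene, had 23.7, 52.5 and 32.4 FPKM in asf1ab and was listed at 0 in the WT libraries. AT1G64795, an uncharacterized protein gene, had 7.85, 47.6 and 29.6 FPKM in asf1ab and was also listed at 0 in WT. AT1G04560, an AWPM-19-like membrane protein gene, had 26.9, 45.2 and 44.8 FPKM in asf1ab, against 1.1, 1.06 and 0.07 FPKM in WT (4.55 ± 0.39 log2, adjusted p = 1.05e-07). ECP63, an embryonic LEA protein gene, rose by 3.51 ± 0.23 log2 (adjusted p = 4.35e-09). LEA (late embryogenesis abundant) proteins protect cells during drying, and by annotation 51 genes of this family were tested, with 18 higher and 8 lower. These are 35.3% higher and 15.7% lower, against 6.26% and 15.8% of all genes, so only the rises exceed the share over all genes. The lower count among tested members was 4 without asf1ab replicate 2 or 3 or WT replicate 2, and 5 without WT replicate 1 or 3. The filter has a part in the share of rises, since a member silent in WT could pass only through mutant libraries. Of all 86 members 35 were not tested. Over the 86, asf1ab lay above WT in every library for 20 and below for 13, against 2506 and 5386 of all 33020 loci. The family and those named further below were looked up by annotation after values had been seen. AT1G68250 rose by 3.49 ± 0.60 log2. PCC1, a pathogen- and clock-controlled gene, had 160.6, 115.4 and 99.2 FPKM in asf1ab, against 1.1, 2.24 and 95.6 FPKM in WT. WT replicate 3 thus nearly reached the mutant level, and the call of PCC1 (3.83 ± 0.98 log2, adjusted p = 0.0087) ended without WT replicate 1 (adjusted p = 0.0572) or replicate 2 (adjusted p = 0.0522).

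Among 15 genes of abscisic acid and water stress, 4 rose and 5 fell, so the list had no common direction. These are 26.7% higher and 33.3% lower, against 6.26 and 15.8% of all genes. RD29B, a hydrophilic protein gene induced by the hormone, had 20.4, 27.1 and 24.9 FPKM in asf1ab, against 4.71, 5.42 and 2.71 FPKM in WT (2.28 ± 0.29 log2, adjusted p = 1.3e-05). The dehydrin gene RAB18 rose by 1.54 ± 0.22 log2 (adjusted p = 6.63e-05). ABI5, the bZIP factor that arrests growth after germination, had 5.62, 6.90 and 6.32 FPKM in asf1ab, against 2.22, 1.49 and 1.49 FPKM in WT (1.42 ± 0.22 log2, adjusted p = 0.000129). Of the 5 that fell, KIN2, a cold-induced gene, had 34.4, 58.3 and 29.3 FPKM in asf1ab, against 109.3, 112.6 and 89.3 FPKM in WT (-1.39 ± 0.24 log2, adjusted p = 0.000467). The dehydrin gene COR47 fell by 1.21 log2 and RD26, a NAC transcription factor gene, fell by 1.37 log2. Without WT replicate 2 the lower count of the list was 3.

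Some genes for histone H3 were also higher in asf1ab. Of 11 tested histone H3 genes 6 were higher and none lower in asf1ab (background 6.26% higher), with a median of 0.571 log2. The most abundant of them was AT4G40030, which had 503, 575 and 481 FPKM in asf1ab, against 359, 351 and 313 FPKM in WT (0.61 ± 0.09 log2, adjusted p = 5.06e-05). AT5G10980, like it known as a gene of the replacement variant, had 271, 312 and 284 FPKM in asf1ab, against 189, 190 and 203 FPKM in WT (0.57 ± 0.07 log2, adjusted p = 4.63e-06). Asf1ab lay above WT in all libraries for both genes. The replication-type gene AT3G27360 had 46.4, 67.3 and 39.7 FPKM in asf1ab, against 30.6, 28.0 and 32.5 FPKM in WT (0.70 ± 0.15 log2, adjusted p = 0.00256). The weakly expressed AT1G13370 rose by 1.43 ± 0.20 log2 and AT1G75600 by 1.33 ± 0.41 log2. AT1G75600 rests on asf1ab replicate 3, since without it the change was 0.81 log2 (adjusted p = 0.146), and its call also ended without WT replicate 1 (adjusted p = 0.0912) or replicate 3 (adjusted p = 0.0506). The call of AT5G10390 (0.58 log2) ended without any of 4 libraries, with adjusted p of 0.0631 and 0.147 for WT replicates 1 and 2 and 0.0523 and 0.179 for asf1ab replicates 1 and 2. The number of H3 genes called higher was 6 under both other scalings and 4 to 6 with 1 library left out.

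Genes of the other histones moved less uniformly. Of 29 tested, 4 were higher and 2 lower (13.8 and 6.9%, against 6.26 and 15.8% of all genes), with a median of 0.148 log2. The H4 genes AT3G45930 and AT5G59970 rose by 0.71 and 0.59 log2, but asf1ab replicate 2 was the highest library in both and without it the changes were 0.49 (adjusted p = 0.0847) and 0.40 (adjusted p = 0.0745). The H4 gene AT1G07820 rose by 0.52 log2 and the linker histone gene AT2G30620 by 0.4. Without asf1ab replicate 2 this list had 2 genes higher and 5 lower. The H2B gene AT2G28720 went the other way, with 25.4, 25.9 and 31.1 FPKM in asf1ab, against 48.5, 50.7 and 44.7 FPKM in WT (-0.79 ± 0.12 log2, adjusted p = 9.09e-05). HTB4, also an H2B gene, fell by 0.33, a call that ended without WT replicate 1 (adjusted p = 0.0557) or 3 (adjusted p = 0.0516) or asf1ab replicate 1 (adjusted p = 0.0641). Histone genes of 1 type encode nearly the same protein, and reads shared between copies could be divided differently by another counting method.

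The list with the largest share of falls was the jasmonate pathway, the lipid-derived hormone of wounding and defence. Of 23 listed genes 22 were tested, and 18 were lower and none higher in asf1ab, against 15.8% lower among all genes, with a median of -1.49 log2. The list runs from synthesis to response. AOC2, an allene oxide cyclase of the synthesis pathway, had 34.5, 45.2 and 42.5 FPKM in asf1ab, against 149.1, 153.1 and 246.0 FPKM in WT (-2.11 ± 0.26 log2, adjusted p = 1.09e-05). ST2A, which sulfates hydroxylated jasmonate, fell by 1.99 log2. Among responsive genes, VSP2, a vegetative storage protein, had 6.23, 7.84 and 6.75 FPKM in asf1ab, against 26.3, 45.7 and 68.9 FPKM in WT (-2.50 ± 0.45 log2, adjusted p = 0.00055). VSP1 fell by 2.28 log2 (adjusted p = 0.000185). CORI3, an enzyme gene induced by the hormone, had 0.70, 0.49 and 1.02 FPKM in asf1ab, against 9.21, 13.6 and 23.9 FPKM in WT (-3.17 ± 0.31 log2, adjusted p = 7.73e-07). The defensin gene PDF1.2 had 0.31, 0.93 and 0.14 FPKM in asf1ab, against 4.91, 18.9 and 43.3 FPKM in WT (-3.61 ± 0.79 log2, adjusted p = 0.00281). WT replicate 3 was the highest of all 6 libraries in each of these genes, while the other WT libraries still lay above all asf1ab libraries. Summed over the list, asf1ab had 267.9, 329.6 and 269.2 FPKM, against 646, 724.7 and 1115 FPKM in WT. Without WT replicate 3 the number of lower jasmonate genes was 11, and the median -1.1 log2. Leaving out any other library gave 16 to 18.

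The JAZ repressors, which the hormone both degrades and induces, followed the same direction. By annotation 13 were tested, and 10 were lower and 1 higher (76.9 and 7.69%, against 15.8 and 6.26% of all genes). JAZ8 was listed at 0 in all asf1ab libraries and had 1.43, 1.62 and 4.43 FPKM in WT, a fall whose call ended without WT replicate 3 (adjusted p = 0.0636). Without WT replicate 3 only 2 JAZ genes were called lower, and without asf1ab replicate 1 the count was 6. MYC2, the central transcription factor of the pathway, had 10.4, 8.33 and 6.84 FPKM in asf1ab, against 7.57, 12.5 and 18.0 FPKM in WT, and was not called. Outside the list, JRG21 (AT3G55970), a jasmonate-regulated oxygenase gene, fell by 3.43 ± 0.49 log2 (adjusted p = 5.45e-05). The related oxygenase genes AT5G05600 (5.06, 4.40 and 5.02 FPKM in asf1ab, against 44.8, 55.8 and 99.6 FPKM in WT) and AT2G38240 fell by 3.46 and 3.53 log2.

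**Figure D3:**
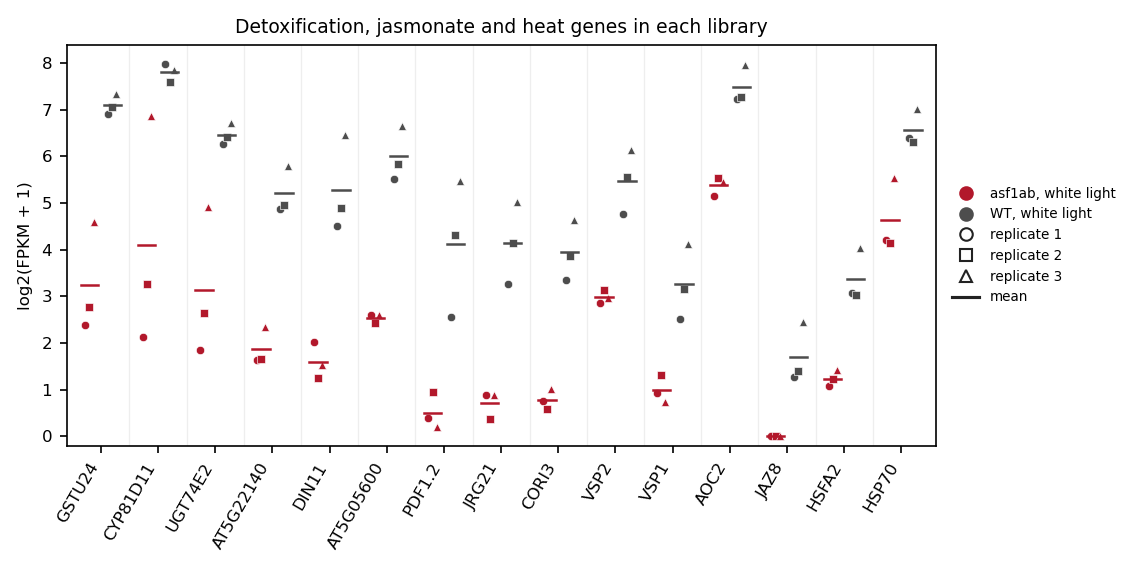
Log2(FPKM + 1) of detoxification, jasmonate and heat genes in each white-light library (points, shaped by replicate) with group means (bars), asf1ab left of WT for each gene. WT replicate 3 is the highest library in most of these genes, and asf1ab replicate 3 is the highest of the mutant libraries in GSTU24, CYP81D11 and UGT74E2.

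Enzymes and transporters that handle foreign and reactive compounds also held many falls. GSTU24 (AT1G17170), a tau-class glutathione transferase, had 4.25, 5.78 and 22.9 FPKM in asf1ab, against 118.6, 131.3 and 160.5 FPKM in WT (-3.85 ± 0.92 log2, adjusted p = 0.00515). CYP81D11 (AT3G28740), a cytochrome P450 induced by foreign compounds, had 3.40, 8.64 and 115.4 FPKM in asf1ab, against 250.5, 192.4 and 229.7 FPKM in WT. Asf1ab replicate 3 stood apart from the other mutant libraries here and lay nearer to WT. The call of CYP81D11 (-3.72 ± 1.02 log2, adjusted p = 0.0125) ended without asf1ab replicate 1 (-2.74, adjusted p = 0.0815) or replicate 2 (-3.31, adjusted p = 0.0567). UGT74E2, a glycosyltransferase, had 2.58, 5.21 and 29.0 FPKM in asf1ab, against 75.8, 84.7 and 103.9 FPKM in WT. Its call (-3.34 ± 1.09 log2, adjusted p = 0.0331) ended without any single library other than asf1ab replicate 3, with adjusted p of 0.136 and 0.1003 without asf1ab replicates 1 and 2, and 0.0628, 0.0735 and 0.0852 without WT replicates 1, 2 and 3. AT5G22140, an oxidoreductase gene, fell by 3.33 ± 0.68 log2 (adjusted p = 0.00162). By annotation, 10 of 21 tested tau glutathione transferases were lower and none higher, 19 of 42 UDP-glycosyltransferases were lower and 1 higher, and 37 of 119 cytochromes P450 were lower and 3 higher. The lower shares were 47.6, 45.2 and 31.1%, against 15.8% of all genes. Among transporters, 10 of 12 ABCC (83.3%) and 17 of 37 MATE genes (45.9%) were lower, with 0 and 1 higher. The lower calls ranged with 1 library left out from 7 to 12 for the transferases, 10 to 20 for the glycosyltransferases, 25 to 39 for the P450s, 5 to 10 for ABCC genes and 13 to 18 for MATE genes. The glycosyltransferase count was 10 without asf1ab replicate 1 and 11 without WT replicate 3, and the ABCC count 6 without asf1ab replicate 1 or 2 and 5 without WT replicate 3.

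Further large falls were of mixed function. AT3G09160, an RNA-binding protein gene, had 0.42, 0.34 and 0.30 FPKM in asf1ab, against 18.1, 15 and 12.2 FPKM in WT (-3.56 ± 0.18 log2, adjusted p = 3.92e-10). AT4G11410, a short-chain oxidoreductase gene, had 0.08, 0.18 and 0.12 FPKM in asf1ab, against 13.2, 14.3 and 7.89 FPKM in WT (-3.47 ± 0.24 log2, adjusted p = 9.98e-09). These 2 had the smallest standard errors among the 15 largest falls, with libraries close together in both groups. TDR1, an ERF-type transcription factor gene, fell by 3.36 ± 0.59 log2, and ELI3-2, a cinnamyl alcohol dehydrogenase gene of defence, by 3.36 ± 0.70. DIN11, a dark-inducible oxygenase gene, had 3.08, 1.36 and 1.87 FPKM in asf1ab, against 21.8, 28.7 and 86.7 FPKM in WT. Its call (-3.69 log2, adjusted p = 0.0125) ended without WT replicate 3 (-3.11, adjusted p = 0.0638). The small RNA loci AT1G09333 and U4.10 were also among the largest falls. AT1G09333 was listed at 0 in asf1ab and at 13.4, 28.9 and 69.7 FPKM in WT, and its call ended without WT replicate 3 (adjusted p = 0.0732). U4.10 had 0, 0 and 0.34 FPKM in asf1ab, against 70.4, 2.98 and 4.42 FPKM in WT, and without WT replicate 1 its change was -2.07 instead of -3.39 log2.

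Heat and rapid stress genes were split. Of 18 tested, 5 were lower and 3 higher (27.8 and 16.7%, against 15.8 and 6.26% of all genes). HSFA2, a heat shock factor, had 1.11, 1.33 and 1.67 FPKM in asf1ab, against 7.43, 7.16 and 15.4 FPKM in WT (-2.14 ± 0.49 log2, adjusted p = 0.00404). The chaperone gene HSP70 had 17.5, 16.6 and 45.1 FPKM in asf1ab, against 82.6, 78.0 and 128.4 FPKM in WT. Its call (-1.94 log2, adjusted p = 0.0174) ended without asf1ab replicate 1 (adjusted p = 0.0692) or 2 (adjusted p = 0.0751) or without WT replicate 3 (adjusted p = 0.0708). HSP101 fell by 1.46 log2, a call that ended without WT replicate 3 (-1.1, adjusted p = 0.0638). ZAT12 and WRKY40, a zinc-finger and a WRKY factor gene, fell by 1.70 and 1.62 log2 with all libraries, and without WT replicate 3 the changes were -1.29 (adjusted p = 0.147) and -1.12 (adjusted p = 0.172). The call of ZAT12 also ended without asf1ab replicate 1 (adjusted p = 0.132) or 2 (adjusted p = 0.0846), and that of WRKY40 without any library but WT replicate 1. TCH2, a touch-induced calmodulin-like gene, went up, with 73.2, 95.7 and 67.3 FPKM in asf1ab, against 30.7, 35.0 and 48.3 FPKM in WT (1.04 ± 0.13 log2, adjusted p = 1.56e-05). Without WT replicate 3 this list had 1 gene lower and 6 higher, and without asf1ab replicate 1 or 2 it had 2 lower. Salicylic acid genes, which often oppose the jasmonate branch, gave 1 call among 12, ICS1 (0.67 log2). That call ended without WT replicate 1 (adjusted p = 0.0524) or 2 (adjusted p = 0.0554) or asf1ab replicate 1 (adjusted p = 0.0501). PR1, a marker of that hormone, had 7.99, 6.06 and 1.64 FPKM in asf1ab, against 0.19, 0.29 and 2.97 FPKM in WT, and was not called.

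In lists of defence metabolites and sulfur supply, calls were mostly falls, to be set against 15.8% lower among all genes. Of 14 glucosinolate genes 7 were lower and none higher, with a median of -0.589 log2. BCAT4, which starts side-chain elongation of methionine, had 22.5, 31.6 and 19.0 FPKM in asf1ab, against 45.0, 85.5 and 83.2 FPKM in WT (-1.48 ± 0.25 log2, adjusted p = 0.000315). The regulator MYB29 fell by 0.97 log2 (adjusted p = 0.00322), and the core enzyme genes CYP83A1 and CYP79B3 by 0.93 and 0.70. ESM1, which directs glucosinolate breakdown to isothiocyanates, had 9.72, 8.80 and 4.17 FPKM in asf1ab, against 34.4, 36.5 and 31.9 FPKM in WT (-2.11 ± 0.23 log2, adjusted p = 2.41e-06). Of 10 genes of sulfur and phosphate starvation, 5 were lower, all of them sulfur genes, and 1 was higher. The 1 higher gene was the phosphate transporter PHT1;4 (0.48 log2, adjusted p = 0.0317), whose change was 0.3 without WT replicate 1 (adjusted p = 0.178). Its call also ended without WT replicate 2 (adjusted p = 0.0522) or asf1ab replicate 1 (adjusted p = 0.075) or 2 (adjusted p = 0.104). SDI1 and LSU1, both induced by low sulfur, fell by 1.74 and 1.43 log2 (adjusted p = 0.000557 and 0.000405). Without asf1ab replicate 1 the lower count of this list was 2, and without asf1ab replicate 3, WT replicate 2 or WT replicate 3 it was 3. Of 15 flavonoid and anthocyanin genes 5 were lower. PAP1, the MYB activator of anthocyanin genes, had 0.29, 0.20 and 0.57 FPKM in asf1ab, against 1.61, 2.75 and 6.19 FPKM in WT (-1.62 ± 0.27 log2, adjusted p = 0.000279). The transferase gene GSTF12, needed to move anthocyanins to the vacuole, fell by 1.56 log2. The lower count of that list was 3 without asf1ab replicate 1 or 2 and 10 without WT replicate 1.

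Iron genes moved in both directions. The bHLH genes BHLH100, BHLH38 and BHLH39, switched on when iron is scarce, were near 0 in WT and clearly expressed in asf1ab. BHLH100 had 33.7, 28.8 and 5.94 FPKM in asf1ab, against 0.23, 0.88 and 0.22 FPKM in WT (3.77 ± 0.51 log2, adjusted p = 3.03e-05). BHLH38 had 27.6, 24.5 and 4.27 FPKM in asf1ab, against 0.20, 0.32 and 0.24 FPKM in WT (3.64 ± 0.48 log2, adjusted p = 2.22e-05). Asf1ab replicate 3 was the lowest mutant library in each of the 3 genes, yet remained above every WT library. FER1, an iron-storing ferritin that is induced when iron is plentiful, had 101.4, 190.2 and 175.0 FPKM in asf1ab, against 556.2, 508.2 and 630.1 FPKM in WT (-1.90 ± 0.41 log2, adjusted p = 0.0026). FER3 fell by 0.88 log2, a call that ended without asf1ab replicate 1 (-0.73, adjusted p = 0.0529). The uptake transporter IRT1 had 2.39, 2.94 and 0.71 FPKM in asf1ab, against 0.17, 1.31 and 0.65 FPKM in WT, and was not called. The nitrate reductase genes NIA1 and NIA2 and the transporter NRT1.1 were not called either.

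Among flowering genes, the MADS-box repressor FLC (AT5G10140) showed a steady and large difference. It had 3.68, 3.5 and 3.43 FPKM in asf1ab, against 26.4, 19.9 and 19.6 FPKM in WT (-2.33 ± 0.15 log2, adjusted p = 5.76e-09). Its relative MAF5 had 2.20, 1.37 and 1.61 FPKM in asf1ab, against 7.80, 6.06 and 5.88 FPKM in WT (-1.48 ± 0.26 log2, adjusted p = 0.000498). AGL24, a promoter of flowering, fell by 1.4 ± 0.15 log2 (adjusted p = 1.95e-06). SOC1, which FLC represses, had 23.4, 21.1 and 35.9 FPKM in asf1ab, against 18.0, 17.1 and 12.7 FPKM in WT (0.70 ± 0.15 log2, adjusted p = 0.00254). In all, 3 of 13 tested genes of this list were lower and 1 higher (23.1 and 7.69%, against 15.8 and 6.26% of all genes). Flower identity genes were at or near 0 in both genotypes. SEP3, the 1 such gene tested, had 0.79, 0.44 and 0.77 FPKM in asf1ab, against 0.97, 1.1 and 0.85 FPKM in WT.

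Among shoot meristem markers 3 of 8 were lower. The share over all genes, for these and the markers below, was 15.8% lower and 6.26% higher. KNAT1, a homeobox gene of the meristem and stem, had 9.48, 6.84 and 11.7 FPKM in asf1ab, against 29.8, 20.3 and 24.8 FPKM in WT (-1.34 ± 0.19 log2, adjusted p = 4.45e-05). STM, the gene that keeps meristem cells undifferentiated, had 1.4, 1.3 and 1.35 FPKM in asf1ab, against 4.13, 3.88 and 2.77 FPKM in WT (-0.95 ± 0.11 log2, adjusted p = 7.86e-06). AS2, a leaf polarity gene, fell by 0.65, a call that ended without asf1ab replicate 1 (adjusted p = 0.114) or 3 (adjusted p = 0.102) or WT replicate 2 (adjusted p = 0.0829) or 3 (adjusted p = 0.0978). Over the whole list the summed level was 77.9 to 83.2 FPKM in asf1ab and 97.6 to 122.2 FPKM in WT. WUS, a defining gene of the stem cell niche, was at most 0.23 FPKM in any of the 6 libraries. Among root markers 3 of 6 tested were lower and 1 higher. CASP1, which builds the Casparian strip of the endodermis, had 10.7, 8.53 and 7.76 FPKM in asf1ab, against 22.0, 22.9 and 22.9 FPKM in WT (-1.25 ± 0.23 log2, adjusted p = 0.000711). CASP2 fell by 1.51 log2 and the root patterning gene SHR by 0.53, whereas SCR rose by 0.33. The summed level of the 13 root markers was 47.7 to 56.1 FPKM in asf1ab and 68.1 to 80.0 FPKM in WT, and the root tip genes PLT1, PLT2 and WOX5 were at most 0.56 FPKM in any library. Whether the share of root or meristem tissue differed between the samples was not tested. Stomatal markers gave 1 call of 9, KAT1 (-0.36), which ended without any library but WT replicate 1 or asf1ab replicate 2, with adjusted p up to 0.144. Vascular markers gave 1 of 8, the sucrose transporter SUC2 (-0.6), which ended without asf1ab replicate 2 (adjusted p = 0.0842) or WT replicate 1 (adjusted p = 0.0528). The wax enzyme gene KCS6 fell by 0.89 ± 0.14 log2 (adjusted p = 0.000181) and the alkane-forming CER1 rose by 0.82 ± 0.21 (adjusted p = 0.0078), the 2 calls among 10 epidermis genes.

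Photosynthesis transcripts, among the most abundant of the seedling, leaned upward in the deposited values. Of 27 tested genes 6 were higher (22.2%, against 6.26% of all genes) and none lower. Counted over all 28 listed, asf1ab lay above WT in every library for 21, against 2506 of all 33020 loci. RBCS2B, a small subunit gene of Rubisco, had 9164, 8525 and 6167 FPKM in asf1ab, against 2012, 3448 and 2982 FPKM in WT (1.51 ± 0.32 log2, adjusted p = 0.00224). Its near-identical neighbour RBCS3B had 13532, 14404 and 14462 FPKM in asf1ab, against 10668, 12316 and 9632 FPKM in WT (0.39 log2, adjusted p = 0.042). The antenna gene LHCB1.2 rose by 1.02 ± 0.24 log2 (adjusted p = 0.00567), and the chlorophyll synthesis genes GUN4 and PORC by 0.56 and 0.40. Carbonic anhydrase CA1 had 3650, 3658 and 3861 FPKM in asf1ab, against 2580, 2661 and 1953 FPKM in WT (0.65 ± 0.14 log2, adjusted p = 0.00263). PSBR, a photosystem II subunit, rose by 0.38 log2 (adjusted p = 0.0485). These genes take a large share of the FPKM total and the size of their change is sensitive to scaling. The median of the list was 0.375 log2 as deposited and 0.462 after rescaling by the median of ratios, with 6 higher and none lower in both. After quantile normalization it was 0.104, with 4 higher and none lower, and RBCS3B and PSBR then had changes of 0.00. With 1 library left out, the calls of RBCS3B and PSBR ended for 5 of the 6 libraries, with adjusted p up to 0.163 and 0.204 (both without WT replicate 3), and 4 or 5 members of the list were called higher, with 1 called lower without asf1ab replicate 3. Among 75 tested plastid-encoded genes 7 were called higher (9.33%, against 6.26% of all genes), but none without asf1ab replicate 1 and 15 without asf1ab replicate 3.

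Lists of other hormone, light and clock genes gave calls in both directions. Among all genes 6.26% were higher and 15.8% lower. The small counts that follow are not read as results about these lists. Of 14 ethylene and cytokinin genes 2 were higher and 2 lower, of 16 clock genes 2 and 2, and of 16 brassinosteroid and gibberellin genes 1 and 1. In white light 1 of 22 light signalling genes was higher and 1 lower, and the photoreceptor gene PHYB had 17.5, 17.6 and 22.8 FPKM in asf1ab, against 24.6, 25.5 and 26.6 FPKM in WT (-0.40 ± 0.10 log2, adjusted p = 0.00593). Of 18 genes known for induction by shade, HAT3 was higher and PIL1 lower. The call of PIL1 (-0.39 log2) ended without asf1ab replicate 3 (adjusted p = 0.0696) or WT replicate 1 (adjusted p = 0.0537). Without asf1ab replicate 3, 5 light signalling genes were lower. HAT3, a homeodomain-leucine zipper gene, had 18.4, 20.9 and 20.4 FPKM in asf1ab, against 14.5, 13.9 and 12.5 FPKM in WT (0.51 ± 0.10 log2, adjusted p = 0.00078). Of 24 auxin genes 3 were higher and 4 lower, with 6 higher without asf1ab replicate 3 and 2 lower without WT replicate 3. SAUR9 had 0.36, 0.19 and 0.19 FPKM in asf1ab, against 1.82, 2.14 and 1.99 FPKM in WT (-1.26 ± 0.16 log2, adjusted p = 2.03e-05), and the auxin synthesis gene TAA1 rose by 0.72 log2 (adjusted p = 0.00418). ARR7, an early cytokinin response regulator, had 26.6, 31.1 and 17.1 FPKM in asf1ab, against 8.81, 11.6 and 12.9 FPKM in WT (1.07 ± 0.20 log2, adjusted p = 0.000855). BAS1, which inactivates brassinosteroids, fell by 0.77 log2 (adjusted p = 0.000407). Of 16 wall-loosening genes 3 were higher and 2 lower. The expansin EXPA1 had 381.4, 380.1 and 344.2 FPKM in asf1ab, against 259.2, 281.3 and 274.1 FPKM in WT (0.44 ± 0.12 log2, adjusted p = 0.01002). In the clock, PRR3 had 4.12, 3.36 and 3.15 FPKM in asf1ab, against 9.51, 8.08 and 6.92 FPKM in WT (adjusted p = 2.77e-05) and the morning gene CCA1 rose by 0.61 ± 0.15 (adjusted p = 0.00531).

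Genes of DNA synthesis and repair, processes in which ASF1 acts, gave almost no calls, against 22.1% called among all genes. Of 17 tested replication genes none was called, and the largest rise was ICU2, a catalytic subunit gene of DNA polymerase alpha, at 0.15 ± 0.12 log2 (adjusted p = 0.379). PCNA1, the sliding clamp, had 13.5, 16.4 and 10.07 FPKM in asf1ab and 12.4, 9.65 and 13.5 FPKM in WT. Of 23 tested genes of the DNA damage response 1 was called. This was GMI1, an irradiation-induced gene of homologous recombination, which had 3.14, 2.75 and 3.85 FPKM in asf1ab, against 1.39, 1.55 and 1.85 FPKM in WT (0.71 ± 0.14 log2, adjusted p = 0.00169). Under quantile normalization 6 genes of that list were called higher. In mitosis and cytokinesis 2 of 18 genes were lower, SMR1 by 0.50 log2 (adjusted p = 0.00332) and SIM by 0.33, the second a call that ended without asf1ab replicate 1 (adjusted p = 0.0812) or WT replicate 2 (adjusted p = 0.0783). Both encode inhibitors of cyclin-dependent kinases. Of 17 chromatin genes, ARP6, a subunit of the complex that deposits H2A.Z, was the only one called (-0.33 ± 0.08 log2, adjusted p = 0.00606).

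Some loci were listed at 0 in every library of 1 genotype and at 1 FPKM or more in every library of the other. There were 10 such loci seen in asf1ab and not in WT, and 8 the other way round. Besides the storage genes, the first kind includes AT5G50700, a hydroxysteroid dehydrogenase gene, at 2.68, 4.77 and 7.36 FPKM in asf1ab, and AT4G18900, a WD40-repeat gene, at 2.38, 3.33 and 2.77 FPKM. The annotation gives AT5G50600 the same symbol, HSD1, and that locus had 0, 3.16 and 0 FPKM in asf1ab and 0.13, 0.15 and 0.09 FPKM in WT. How the counting treated these copies is unknown. The second kind includes JAZ8 and 3 uncharacterized or small RNA loci between 1.18 and 2.68 FPKM in WT, AT5G27093, AT3G46666 and AT5G00790. An FPKM of 0 can also stand for a value the counting could not assign, so no fold is given for them.

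Were these differences also present in other libraries? Shaded asf1ab and shaded WT share no library with the white-light comparison. Both comparisons come from the same fit, however, and share its filter and the variance estimate of each gene. The calls in white light and in shade are therefore not independent of each other. In that comparison 4776 genes were called (25%), 1746 higher (9.13%) and 3030 lower (15.8%). Of the 1197 genes higher in white light, 723 were also higher in shade, which is 60.4% of the white-light list and 41.4% of the shade list. Of the 3028 lower genes, 1892 were also lower in shade, 62.5% of the white-light list and 62.4% of the shade list. Opposite calls were made for 16 and 8 genes. Across the 19126 genes the changes in white light and shade had a Pearson r of 0.727, as a description over genes that are not independent. Of the 13 tested seed maturation genes 11 were higher in shade, and of the 22 jasmonate genes 20 were lower. The seed count is partly set by the filter, since a gene silent in WT passes it through mutant libraries, shaded asf1ab among them. Glucosinolate genes had 12 of 14 lower in shade and tau glutathione transferases 12 of 21. Other groups had fewer falls in shade than in white light. ABCC transporters had 3 of 12 lower in shade and 10 in white light, UDP-glycosyltransferases 11 of 42 and 19, and flavonoid genes 1 of 15 and 5. The test of the difference between the conditions, given below, called no ABCC, UDP-glycosyltransferase or flavonoid gene. Whether these groups differ as a whole between the conditions was not tested. In shade, SESA5 had 123.8, 61.4 and 60.9 FPKM in asf1ab, against 0.31, 0 and 0 FPKM in WT. CORI3 had 0.63, 1.23 and 1.18 FPKM in shaded asf1ab, against 38.1, 25.5 and 30.3 FPKM in shaded WT. In these shade libraries no single WT library stood apart in CORI3, and the groups were again far from overlapping. FLC had 4.57, 4.37 and 5.18 FPKM in shaded asf1ab, against 24.7, 23.6 and 22.2 FPKM in shaded WT. GSTU24 had 2.30, 2.48 and 3.17 FPKM in shaded asf1ab, against 105.1, 41.0 and 84.5 FPKM in shaded WT.

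**Figure D4:**
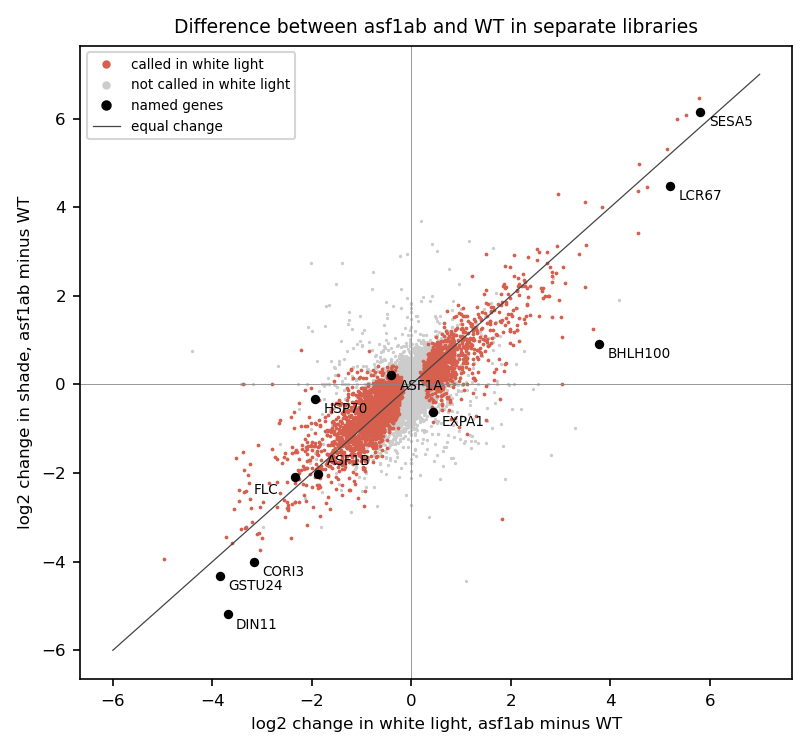
Log2 change between asf1ab and WT (log2(FPKM + 1) scale) in white light (x axis) and in shade (y axis) for 19126 genes, with genes called in white light in red and the line of equal change. Most called genes keep their sign, and SESA5, LCR67, FLC, GSTU24 and CORI3 lie near the line, whereas BHLH100, HSP70 and EXPA1 lie away from it.

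The test of the difference between the 2 conditions called 88 genes (0.46%), 33 with a higher and 55 with a lower asf1ab effect in shade. The number depends on single libraries: it was 48, 46 and 145 without white-light asf1ab replicates 1, 2 and 3, and 53, 52 and 99 without white-light WT replicates 1, 2 and 3. EXPA1 was higher in asf1ab in white light but had 144.0, 146.6 and 107.2 FPKM in shaded asf1ab, against 197.0, 205.4 and 202.7 FPKM in shaded WT. HAT3 was likewise higher in white light, with 28.3, 25.4 and 26.3 FPKM in shaded asf1ab, against 34.9, 31.0 and 30.5 FPKM in shaded WT. Among genes singled out after their values were seen, the deadenylase gene CAF1a had changes of 1.5 log2 in white light and -0.80 in shade (difference -2.30, adjusted p = 2.58e-05), and the ERF-type gene AT5G51190 of 1.82 and -3.05. The iron regulators were not called in shade: BHLH100 had 3.34, 2.65 and 14.2 FPKM in shaded asf1ab, against 1.53, 2.92 and 2.56 FPKM in shaded WT. BHLH38 had 1.17, 0.58 and 5.29 FPKM in shaded asf1ab, against 0.05, 0.31 and 0.15 FPKM in shaded WT. Its groups did not overlap in shade, and its change of 1.26 log2 missed the threshold (adjusted p = 0.0616). The differences of the effect between the conditions were -2.85 log2 for BHLH100 and -2.39 for BHLH38, and neither was called (adjusted p = 0.0999 and 0.156).

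**Figure D5:**
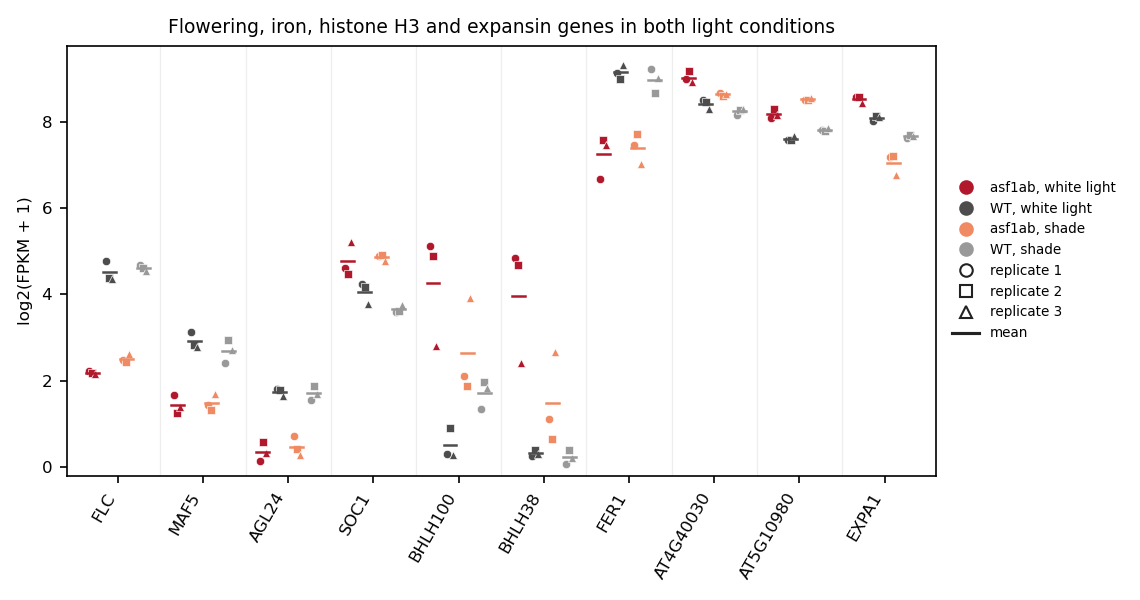
Log2(FPKM + 1) of flowering, iron, histone H3 and expansin genes in each library (points, shaped by replicate) with group means (bars); for each gene the groups run from left to right as asf1ab and WT in white light, then asf1ab and WT in shade. FLC, MAF5 and AGL24 are lower and both H3 genes higher in asf1ab in either condition, while EXPA1 is higher in asf1ab in white light and lower in shade.

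Finally, asf1ab was compared directly with hira, which lacks the chaperone that receives dimers from ASF1 outside replication. White-light hira libraries 1 and 2 had 8.32 and 7.27% of summed FPKM in ribosomal RNA and replicate 3 had 3.22%, against 1.25 to 1.86% in asf1ab. The direct test called 1115 genes (5.83%), 541 higher in asf1ab (2.83%) and 574 lower (3%). Without asf1ab replicate 2 it called 728. Of the 1197 genes above WT in asf1ab, 308 were also above hira, 24 were below hira and 865 were not called against it. Of the 3028 genes below WT, 421 were also below hira, 5 above it and 2602 not called. A missing call does not show that the mutants are alike.

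The seed storage genes were among the clearest differences. SESA5 had 21.4, 131.3 and 65.9 FPKM in asf1ab, against 0.63, 0.59 and 0.21 FPKM in hira (5.32 log2, adjusted p = 5.21e-08). CRA1 had 5.09, 5.16 and 1.73 FPKM in hira, below every asf1ab library (3.67 log2, adjusted p = 0.000146). Of the 13 tested seed maturation genes 9 were higher in asf1ab than in hira, a count in which the filter again has a part. LCR67, at 0, 0 and 1.04 FPKM in hira, gave the largest difference among these genes (5.88 log2, adjusted p = 9.4e-07). By contrast AT1G64795 had 30.4, 51.2 and 70.3 FPKM in hira and AT3G02790 had 11.2, 23.0 and 10.3 FPKM, and neither was called between the mutants. FLC had 5.38, 8.67 and 7.58 FPKM in hira, above all asf1ab libraries (-0.83 log2, adjusted p = 0.00216) but below every WT library. AT5G10980, the H3 gene described above, had 175.8, 153.2 and 167.3 FPKM in hira (0.80 log2 higher in asf1ab, adjusted p = 1.69e-07). Of the 22 jasmonate genes 5 were lower in asf1ab than in hira. Of the large falls named above, PDF1.2 and JRG21 were not called between the mutants. Both were also below WT in hira (-3.06 and -2.57 log2, adjusted p = 0.0183 and 0.00231), in a comparison that uses the same WT libraries. Hira replicate 3 stood apart in both of these genes and in detoxification genes. In hira replicates 1, 2 and 3, PDF1.2 had 0.25, 0 and 6.26 FPKM and JRG21 0.84, 1.09 and 5.91 FPKM. GSTU24 had 6.27, 2.62 and 169.7 FPKM in the same libraries. No fit left out a hira library, so how far these comparisons rest on replicate 3 was not tested.

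Some genes were far lower in asf1ab than in hira. MRD1 (AT1G53480) had 0.75, 0.37 and 1.27 FPKM in asf1ab and 0.43, 0.04 and 0 FPKM in WT, but 22.7, 25.8 and 28.3 FPKM in hira (asf1ab minus hira -3.91 log2, adjusted p = 1.4e-10). ESM1 had 105.2, 105.2 and 59.3 FPKM in hira, so that the mutants lay on opposite sides of WT (-3.43 log2, adjusted p = 7.8e-09). AT1G75945, an uncharacterized protein gene, had 5.10, 4.50 and 2.93 FPKM in asf1ab and 26.0, 29.6 and 42.1 FPKM in hira, both above the 0.78, 0.34 and 0.19 FPKM of WT (asf1ab minus hira -2.69 log2, adjusted p = 3.27e-06). AT2G32870, a TRAF-like gene, had 1.82, 1.36 and 4.37 FPKM in asf1ab and 25.03, 20.2 and 17.9 FPKM in hira (-2.73 log2, adjusted p = 6.24e-07).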

How the data were processed

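RNA sequencing of whole seedlings gave 24 libraries in 8 groups of 3, of which 6 are compared here. The values used are the FPKM deposited by the authors for 33020 loci. Per the submitters' processing notes, FastQC, cutadapt, STAR, HTSeq and DESeq2 were used with the TAIR10 genome. Their versions, the treatment of shared reads and strand, and how FPKM was derived were not given in the sources used here. Groups were taken from the sample labels, and 187 loci carry assembled names (MSTRG). Raw counts were not used, so the test was limma on log2 values.

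The test used log2(FPKM + 1) of the 19126 loci with a mean of at least 1 FPKM over the 24 libraries. A model with 8 group means was fitted with limma 3.58.1 in R 4.3.3, using moderated variances with an intensity trend. P-values were adjusted by Benjamini-Hochberg over all loci tested and called below 0.05. It was tested on simulated data. Contrasts were asf1ab minus WT in white light and in shade, their difference, and asf1ab minus hira in white light. The contrast hira minus WT in white light is given for single genes only. Depth was read from the FPKM steps of genes of 150 to 900 exonic bases. In the 6 libraries 28.3 to 32.6% of low values fell on such steps, against 18.6 to 19.3% at other depths, so it is a rough estimate. Gene names, products, families and gene order come from the TAIR10.1 annotation, which holds 32548 of the locus identifiers. No coordinates or sequences are given, because the authors' build is TAIR10.

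Members, lists and tests were chosen with earlier results of these data known, and families after values had been seen. No set test was run. The rule for named genes took ASF1A and ASF1B, the 15 largest rises and falls among called genes without overlap and with at least 2 FPKM in the higher group, and up to 8 loci each way listed at 0 in 1 genotype. It added the 5 called nuclear genes of highest level, up to 6 called members of each of 32 lists, or the 2 largest where none was called, and the 5 largest differences each way from hira. Alternatives were the 6 libraries alone, quantile normalization, rescaling by the median of ratios, a mean of at least 5 FPKM, no filter, the filter over the 6 libraries, pseudocounts of 0.1 and 5, no trend, a change of at least 1 log2 unit, the replicate number as a block, and each library left out. Figures were made in Python 3.11.15 with matplotlib 3.10.9.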

Additional observations from a re-analysis of the deposited data

Results flagged for a closer look

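Among the genes taken by the naming rule, 3 had an asf1ab effect that differed between shade and white light by the test of the difference itself. HAT3 differed by -0.77 log2 (adjusted p = 0.0123), with asf1ab above WT in white light (0.51) and not called in shade (-0.26). EXPA1 differed by -1.05 log2 (adjusted p = 0.00455), with asf1ab above WT in white light (0.44) and below it in shade (-0.62). SAUR9 differed by -1.12 log2 (adjusted p = 0.0332), with falls of -1.26 in white light and -2.38 in shade. Outside the rule, the same test called CAF1a (-2.3 log2, adjusted p = 2.58e-05), AT5G51190 (-4.87 log2, adjusted p = 0.00258) and NIA1 (-1.72 log2, adjusted p = 0.0119). CAF1a and AT5G51190 were chosen after their values were seen, and NIA1 is a member of the iron and nitrate list. NIA1 was not called in white light (0.09) and was lower in asf1ab in shade (-1.63).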

How the results depend on the processing

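With the 6 compared libraries alone, 608 genes were higher and 1716 lower. Rescaling by the median of ratios gave 1881 higher genes and quantile normalization 2114. Requiring a change of at least 1 log2 unit left 266 higher and 630 lower. Leaving out 1 library gave 832 to 1244 higher and 2228 to 2826 lower genes. Filters, pseudocounts and the variance trend kept both counts within 1.5 times. RBCS3B (-0.00) and PSBR (0.00) changed sign after quantile normalization, and PCNA1, not called in either case, without asf1ab replicate 2 (-0.01), against 0.32 without asf1ab replicate 3. Of 143 named genes that were called, 83 stayed called with the same sign in all alternatives. The replicate number as a block gave 1255 higher and 3257 lower genes. The deviations of asf1ab and WT libraries with the same number correlated at -0.114, 0.06 and -0.101, so the numbers were not treated as pairs, and only asf1ab replicate 2 correlated best with its own number. For the difference between shade and white light 74 genes were called after quantile normalization, 132 with a pseudocount of 5, 88 with the block, and 46 to 145 with 1 library left out. For asf1ab against hira 1213 were called with the block, 746 at a mean of at least 5 FPKM, where fewer genes are tested, and 728 to 1241 with 1 library left out. An estimated depth of 13.7 to 18.5 M fragments and 3 libraries a group limit what can be said of genes near 0 FPKM.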
